A study of Mus musculus with 8 samples.

Results

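Genes of cholesterol synthesis and sterol homeostasis were followed in keratinocytes whose Hmgb1 gene had been deleted. The set was a fixed list of 34 genes taken by symbol from the deposited counts, out of 24421 symbols in all. It held 19 synthesis enzymes, 5 genes of the SREBP control system, 4 of sterol uptake and transport within the cell, 4 of the LXR and efflux arm, and 2 of esterification and sulfation. Every one of the 34 was found and passed the filter on low counts, which left 13016 genes for testing. The lowest count of any member in any library was 22, for Nr1h3.

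The cells were keratinocytes isolated from mouse skin, of mixed CBA and C57Bl/6J background, and RNA was sequenced in bulk. Both groups carried the InvEE transgene, an activated MEK1 kinase driven by the involucrin promoter, which is active in suprabasal epidermis, and both had floxed Hmgb1 alleles (HMGB1 fl/fl). The 4 control libraries came from mice without the K5-Cre transgene (K5 Cre-), and the 4 knockout libraries from mice with it (K5 Cre+). K5-Cre removes floxed DNA from basal keratinocytes and thereby from their descendants, and an effect of Cre alone cannot be told apart from the loss of Hmgb1, since only knockouts carried it. The labels give no age, no sex and no statement that replicates were separate animals, so the p-values describe the spread between libraries, which may be technical.

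Library totals on genes ranged from 30506676 to 34229030 counts. Hmgb1 itself was at 591 ± 21.0 CPM (counts scaled to library size) in controls against 118 ± 5.87 CPM in knockouts (SD, n = 4 each), with no overlap. Of all tested genes, 563 were higher and 591 lower in knockouts at a Benjamini-Hochberg adjusted p under 0.05 by edgeR's quasi-likelihood test, which are 4.33% and 4.54%. TMM scaling factors, which correct library totals for composition, were 1.04 ± 0.0177 in controls against 0.964 ± 0.0450 in knockouts (exact permutation p = 0.0286, SD over 4 libraries each). Fewer symbols had at least 1 count in knockouts, 15780 ± 106, than in controls, 16090 ± 168, at the same exact permutation p, the smallest this design allows. With library totals alone 370 genes were higher and 997 lower, and the median log2 fold change of all tested genes moved by -0.11. Transcripts of Y-linked genes were present in control replicates 2 and 3 and in knockout replicate 1 and near 0 in the other 5 libraries. Keratinocyte markers were abundant throughout, with Krt5 at 23793 ± 2051 CPM in controls against 24214 ± 1984 CPM in knockouts (SD, n = 4 each). Of 8 such markers 1 was called, Perp, a junction protein, which rose from 2556 ± 150.3 to 3490 ± 393 CPM (SD, n = 4 each, edgeR adjusted p = 0.0322). Perp was called in 3 of 8 leave-one-out fits (each without 1 library), with an adjusted p of up to 0.103. Dsg3, a desmosomal cadherin, was at 445 ± 23.0 and 656 ± 179 CPM (SD, n = 4 each), with no overlap of the groups but an edgeR adjusted p of 0.0618.

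Cholesterol is built from acetyl-CoA through mevalonate and isoprenoid intermediates to squalene, which is closed into lanosterol and trimmed step by step to cholesterol. When sterol in the endoplasmic reticulum is scarce, SCAP escorts the SREBP transcription factors to the Golgi, where they are cleaved and released to switch on synthesis and uptake genes. INSIG proteins hold them back when sterol is plentiful, while the LXR receptors sense oxysterols and induce the efflux transporters. In epidermis, cholesterol is one of the main lipids of the water barrier, and cholesterol sulfate is made in the differentiating layers.

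Many SREBP-responsive promoters pair a sterol regulatory element with sites for the cofactors NF-Y, which binds CCAAT boxes, and Sp1, which binds GC boxes. Promoter windows, from 250 bases before to 50 bases after each start in RefSeq's table for GRCm38.p6, were present for 28 of the 34 genes (38 windows of 300 bases). The 4 called genes with the smallest adjusted p among those with a window are printed as examples, and Abca1 as an efflux gene. Mvd lies on the minus strand with its window at chr8:122443373-122443672, and Sc5d on the minus strand at chr9:42264251-42264550. Idi1 lies on the plus strand at chr13:8885356-8885655, Hmgcs1 on the plus strand at chr13:119690101-119690400, and Abca1 on the minus strand at chr4:53159846-53160145. Each is written 5′ to 3′ along its gene, with matches to TCACNCCAC (sterol regulatory element) or CCAAT, read on either strand, in capitals.
Mvd: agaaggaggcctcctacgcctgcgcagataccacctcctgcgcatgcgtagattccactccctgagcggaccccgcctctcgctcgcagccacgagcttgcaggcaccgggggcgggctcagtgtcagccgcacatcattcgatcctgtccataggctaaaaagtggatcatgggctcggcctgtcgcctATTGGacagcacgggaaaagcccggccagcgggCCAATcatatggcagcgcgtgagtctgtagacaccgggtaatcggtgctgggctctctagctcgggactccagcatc
Sc5d: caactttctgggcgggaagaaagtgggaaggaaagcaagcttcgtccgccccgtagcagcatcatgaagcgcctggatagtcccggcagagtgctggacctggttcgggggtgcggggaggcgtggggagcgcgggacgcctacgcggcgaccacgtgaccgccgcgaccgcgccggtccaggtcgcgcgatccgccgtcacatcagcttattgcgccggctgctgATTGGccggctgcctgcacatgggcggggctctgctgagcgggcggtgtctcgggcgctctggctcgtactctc
Idi1: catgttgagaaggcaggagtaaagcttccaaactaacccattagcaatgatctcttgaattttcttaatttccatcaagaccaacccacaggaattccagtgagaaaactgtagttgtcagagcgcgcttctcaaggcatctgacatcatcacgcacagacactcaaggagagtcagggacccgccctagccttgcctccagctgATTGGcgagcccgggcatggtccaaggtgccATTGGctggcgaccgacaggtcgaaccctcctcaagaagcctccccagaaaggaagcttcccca
Hmgcs1: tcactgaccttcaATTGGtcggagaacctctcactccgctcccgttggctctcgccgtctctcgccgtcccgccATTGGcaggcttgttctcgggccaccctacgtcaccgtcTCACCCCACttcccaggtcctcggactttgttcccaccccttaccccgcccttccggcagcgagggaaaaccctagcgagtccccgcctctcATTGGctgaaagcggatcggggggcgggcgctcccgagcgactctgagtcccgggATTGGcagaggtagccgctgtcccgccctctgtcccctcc
Abca1: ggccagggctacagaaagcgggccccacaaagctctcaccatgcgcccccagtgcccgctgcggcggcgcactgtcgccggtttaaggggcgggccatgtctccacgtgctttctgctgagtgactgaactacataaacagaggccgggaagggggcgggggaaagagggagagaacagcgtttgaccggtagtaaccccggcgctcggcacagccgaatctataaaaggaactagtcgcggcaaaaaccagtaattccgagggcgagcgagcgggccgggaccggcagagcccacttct

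Mvd held a CCAAT box on each strand, 60 and 27 bases before the start, Sc5d 1 at 24 bases and Idi1 a pair at 45 and 14 bases. Hmgcs1 held the sterol regulatory element TCACCCCAC 137 bases before its start, flanked by 3 CCAAT boxes upstream of the start and 1 just after it. In these windows the capitalised matches did not overlap one another, and the Abca1 window held neither motif. Over the 28 member genes with a window, 22 (78.6%) held a CCAAT box, against 41.1% of all 27025 genes in the table and 42.8% of the tested genes in it. Counted by window, CCAAT was in 60.5% of the 38 member windows against 37.4% of all windows. CCAAT was present in 15 of 16 synthesis genes with a window. Of members with a window, it was present in 7 of 7 called higher and in 15 of 21 uncalled. The box was thus not particular to the called members. The GC box GGGCGG, on either strand, was present in 23 of 28 (82.1%), against 68.6% of tested genes and 38.2% of all genes. By window it was in 71.1% of member windows against 35.7% of all. TCACNCCAC was matched in 1 of 28 (3.57%), against 1.47% of tested genes and 1.44% of all. Only this pattern was searched, so elements of another spelling or outside the windows were not counted. A match describes letters only, and Fdft1, Fdps, Sqle, Stard4, Abcg1 and Npc1 had no window in the table.

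Of the sterol genes that rose in the knockout, 10 were synthesis enzymes, by 1.51- to 2.46-fold, and 1 was the sterol carrier Stard4. Of the 4 genes of the LXR and efflux arm 0 were called, which is near the share of all tested genes. Of the 34 members 11 were called higher, against 4.33% of all tested genes, and 0 lower, against 4.54%. edgeR left 23 members uncalled, 10 of them with an unadjusted p under 0.05, of which Abca1 alone was lower. DESeq2 and limma-voom called 0 lower as well. Of the 19 enzymes 10 rose and 18 had a positive log2 fold change, with a median of 0.63. The median was 0.39 over all members and -0.02 over all tested genes. All 4 knockouts lay above all 4 controls for 16 members and 12 enzymes, against 7.95% of tested genes. No member had all knockouts below all controls, which 9.00% of tested genes had. In bulk RNA, a smaller number of cells of a type and less RNA per cell cannot be told apart.

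**Figure D1:**
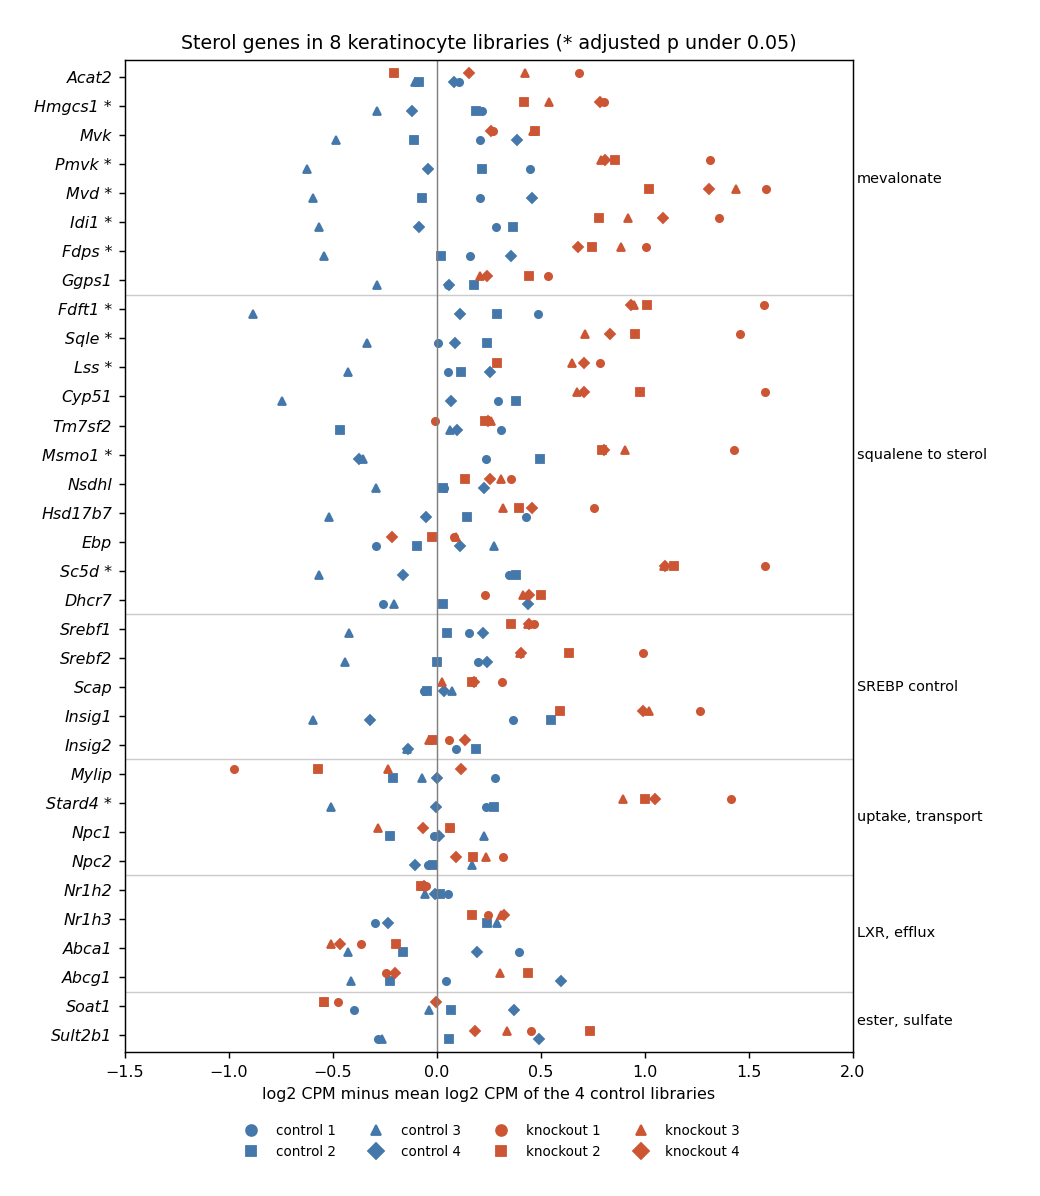
Level of each of the 34 genes in each library, as log2 CPM minus the mean log2 CPM of the 4 control libraries (x axis), grouped by role; blue marks controls, orange knockouts, and the marker shape gives the replicate. Knockouts lie right of every control for 12 of the 19 enzymes in the upper 2 groups, control replicate 3 is the leftmost control for 15 of those 19, and knockout replicate 1 the rightmost knockout for 15.

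Libraries differed in how far they stood apart. Control replicate 3 was the lowest control for 15 of the 19 enzymes and 23 of the 34 members, and knockout replicate 1 the highest knockout for 15 and 22. Without knockout replicate 1, 6 members and 5 enzymes were called higher, against 2.67% of tested genes. Without control replicate 2, the counts were 8 and 6, against 1.88%. Leaving out control replicate 3 gave 10 members and 9 enzymes called higher, against 2.70% of tested genes, and 1 member, Abca1, called lower, against 3.82%. In the 5 libraries without Y-linked transcripts (2 controls, 3 knockouts), 7 members and 6 enzymes were higher, against 1.06%, and 1 member, Abca1, was lower, against 1.83%. DESeq2 called 15 members higher, against 8.41%. With library totals alone 9 members and 8 enzymes were higher, against 2.84%. The median of the enzymes was 0.58 without knockout replicate 1, 0.54 without control replicate 3 and 0.51 in the 5 libraries.

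The mevalonate segment, which makes the isoprenoid units, had 5 of 8 genes called higher and a median log2 fold change of 0.71. Hmgcs1 (chromosome 13, 119690351 to 119708260, mm10) condenses acetyl-CoA with acetoacetyl-CoA to HMG-CoA. Levels were 547, 535, 385 and 432 CPM for control replicates 1 to 4 and 821, 627, 684 and 809 CPM for knockout replicates 1 to 4. Every knockout was above every control, and Hmgcs1 rose 1.55-fold (log2 0.63, SE 0.14, edgeR adjusted p = 0.0223). Per exonic length it was also the most abundant member in both groups, at 136 ± 22.6 RPKM (counts scaled to exon length as well as library size) in controls against 211 ± 27.3 in knockouts (SD, n = 4 each). Its promoter is the printed one with the sterol regulatory element. Pmvk (chromosome 3, 89454541 to 89469014) adds the second phosphate to mevalonate. It stood at 43.0, 36.6, 20.5 and 30.6 CPM in controls against 78.5, 57.1, 54.5 and 55.2 CPM in knockouts. The knockout replicates 2 to 4 lay close together and replicate 1 above them, and the gene rose 1.88-fold (log2 0.91, SE 0.21, edgeR adjusted p = 0.0324).

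Mvd (chromosome 8, 122433596 to 122443422), the decarboxylase that yields isopentenyl diphosphate, had the largest log2 fold change of the 34. Its levels were 14.7, 12.1, 8.44 and 17.5 CPM in controls against 38.1, 25.8, 34.6 and 31.5 CPM in knockouts. The lowest knockout was above the highest control, and the rise was 2.46-fold (log2 1.30, SE 0.21, edgeR adjusted p = 0.00694). Idi1 (chromosome 13, 8885606 to 8892396) interconverts the isopentenyl and dimethylallyl units. It was at 151, 161, 83.9 and 117 CPM in controls against 318, 214, 235 and 264 CPM in knockouts, a 2.01-fold rise (log2 1.01, SE 0.20, edgeR adjusted p = 0.0173). Fdps (chromosome 3, 89093588 to 89101967) joins these units into farnesyl diphosphate, the branch point to sterols and prenylated proteins. It was at 113, 103, 69.4 and 129 CPM in controls against 203, 169.5, 187 and 161 CPM in knockouts. These groups too were separate, with a 1.74-fold rise (log2 0.80, SE 0.17, edgeR adjusted p = 0.0196). Per length Fdps ranked second in both groups, at 71.3 ± 17.4 and 124 ± 12.7 RPKM (SD, n = 4 each). An annotated protein-coding gene, Gm43738, covers 77.4% of its exonic bases on the same strand and was not counted in the files, so the share of reads from each is unknown. Opposite-strand genes also overlap exonic bases of Hmgcs1 (Gm48342, 16.0%), Idi1 (Gm48574, 10.7%), Scap (5830462I19Rik, 18.6%) and Sult2b1 (Lmtk3, 8.33%). Overlaps for Cyp51, Tm7sf2, Srebf1 and Npc1 were smaller.

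Acat2, Mvk and Ggps1 did not pass. Ggps1, which extends farnesyl to geranylgeranyl diphosphate for protein prenylation rather than sterols, was at 24.2, 26.4, 19.1 and 24.3 CPM in controls against 33.8, 31.7, 26.9 and 27.6 CPM in knockouts. Its groups did not overlap, but the log2 difference of 0.35 (95% interval 0.08 to 0.62) had an edgeR adjusted p of 0.0986. Mvk, mevalonate kinase, was at 31.1 ± 7.86 and 39.2 ± 3.19 CPM (SD, n = 4 each), with an interval of -0.03 to 0.70 on the log2 scale. Acat2, a thiolase that makes acetoacetyl-CoA, was at 18.4 ± 1.396 and 22.7 ± 5.82 CPM (SD, n = 4 each), and its interval ran from -0.08 to 0.67. Among the called genes of this segment, Mvd and Idi1 were called in all 8 fits that left out 1 library. Hmgcs1 was not called without control replicate 4 (adjusted p = 0.0569), nor Fdps without control replicate 2 (0.0559) or knockout replicate 1 (0.0512). Pmvk was not called without control replicate 2 or 4 (0.0643 and 0.0738) or knockout replicate 1, 2 or 4 (0.0726, 0.0728 and 0.0503). Hmgcs1, Pmvk and Fdps missed the threshold among the 5 libraries that lack Y-linked transcripts (0.121, 0.0638 and 0.0632).

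From squalene to cholesterol, 5 of 11 genes were called higher, with a median log2 fold change of 0.60. Fdft1 (chromosome 14, 63145150 to 63181687), squalene synthase, commits farnesyl units to sterols. Its levels were 117, 103, 45.4 and 90.6 CPM in controls against 249.6, 169, 162 and 160.4 CPM in knockouts. Controls spread widely, from replicate 3 to replicate 1, yet all lay below the knockouts, and Fdft1 rose 2.08-fold (log2 1.06, SE 0.28, edgeR adjusted p = 0.0494). Its exons overlap those of Ctsb, a cathepsin gene on the opposite strand, over 20.9% of their bases. Ctsb was at 491 ± 31.3 and 570.0 ± 60.0 CPM (SD, n = 4 each, edgeR adjusted p = 0.207), and whether counting used strand is not stated in the labels.

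Sqle (chromosome 15, 59315092 to 59331193), squalene epoxidase, introduces the first oxygen of the sterol and is a control point of the pathway. It was at 93.4, 110.1, 73.8 and 99.1 CPM in controls against 256, 180.4, 153 and 166 CPM in knockouts. Controls were tight, the lowest knockout was above the highest control, and the log2 fold change was 1.00 (SE 0.17, edgeR adjusted p = 0.00891). Lss (chromosome 10, 76531565 to 76557139) closes the ring to lanosterol. It was at 42.6, 44.5, 30.6 and 49.1 CPM in controls against 70.8, 50.2, 64.5 and 67.0 CPM in knockouts. Knockout replicate 2 lay just above control replicate 4, and the 1.51-fold rise had the smallest log2 change of the called genes, 0.60 (SE 0.15, edgeR adjusted p = 0.0370). The antisense gene 4930483K19Rik, which shares 8.16% of the exonic bases of Lss, was itself called higher (0.457 ± 0.178 to 1.36 ± 0.670 CPM, SD, n = 4 each, edgeR adjusted p = 0.0359), and it was called in 2 of the 8 leave-one-out fits (adjusted p up to 0.0840).

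Cyp51, Msmo1, Nsdhl and Hsd17b7 remove the extra methyl groups of lanosterol. Msmo1 (chromosome 8, 64718123 to 64733578), the C4-methyl oxidase, was at 116, 139, 77.1 and 75.9 CPM in controls against 265, 171, 184 and 172 CPM in knockouts. The groups were separate and Msmo1 rose 1.94-fold (log2 0.96, SE 0.22, edgeR adjusted p = 0.0310). Cyp51 (chromosome 5, 4080674 to 4104697), the lanosterol 14-demethylase, was at 167, 178, 81.4 and 143 CPM in controls against 408, 269, 217 and 222 CPM in knockouts. Its groups were separate as well, and its log2 difference of 0.97 (95% interval 0.35 to 1.59) was as large as that of Msmo1. It nevertheless missed the threshold (edgeR adjusted p = 0.0610), with 0.00212 by DESeq2 and 0.0444 by limma-voom. Nsdhl, the C4 decarboxylase, was at 24.7 ± 3.54 and 29.5 ± 1.93 CPM, and Hsd17b7, the 3-keto reductase, at 48.5 ± 12.8 and 66.3 ± 9.25 CPM (SD, n = 4 each). Neither passed, at edgeR adjusted p values of 0.195 and 0.149.

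The last steps rearrange the double bonds of the sterol nucleus. Sc5d (chromosome 9, 42251592 to 42264300), the C5 desaturase, had the second largest log2 fold change of the 34. It was at 70.03, 71.8, 37.2 and 49.3 CPM in controls against 164, 121, 117 and 118 CPM in knockouts. Knockout replicates 2 to 4 were nearly equal and far above the controls, and the rise was 2.28-fold (log2 1.19, SE 0.21, edgeR adjusted p = 0.0115). Dhcr7, the C7 reductase, was at 77.6, 94.8, 80.6 and 126 CPM in controls against 109, 131, 124 and 126 CPM in knockouts. Control replicate 4 overlapped the knockouts, and the log2 difference was 0.37 (95% interval 0.05 to 0.69, edgeR adjusted p = 0.135). Without that library Dhcr7 was called (log2 0.54, adjusted p = 0.0222). Ebp, the sterol isomerase that acts just before Sc5d, was at 45.2 ± 7.65 and 44.4 ± 4.24 CPM (SD, n = 4 each). Its interval of -0.30 to 0.25 on the log2 scale lay below that of Sc5d, 0.72 to 1.66, and the sign of its small difference turned under 5 of 20 alternatives. Tm7sf2, a C14 reductase, was low, at 4.18 ± 0.880 and 4.67 ± 0.393 CPM (SD, n = 4 each).

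Sqle and Sc5d were called in all 8 fits that left out 1 library. Fdft1 was called in 2 of them only, without control replicate 1 or 3, and its largest adjusted p was 0.112, without knockout replicate 1. It also missed without control replicates 2 (0.0907) and 4 (0.0955) and knockout replicates 2 (0.109), 3 (0.0638) and 4 (0.0708). Lss was called in 3 of the 8, and missed without control replicates 1 (0.0667) and 2 (0.0733) and knockout replicates 1 (0.0861), 3 (0.0623) and 4 (0.0752). Msmo1 was called in 4, and missed without control replicates 3 (0.0630) and 4 (0.0634) and knockout replicates 1 (0.0640) and 2 (0.0607). Fdft1 also missed with upper-quartile scaling (0.0563), library totals (0.0554), no filter on low counts (0.0878) or a Y-linked term (0.0652), and Lss with library totals (0.0532), a replicate block (0.0552), a Y-linked term (0.0549) or the 5 libraries without Y-linked transcripts (0.195).

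**Figure D2:**
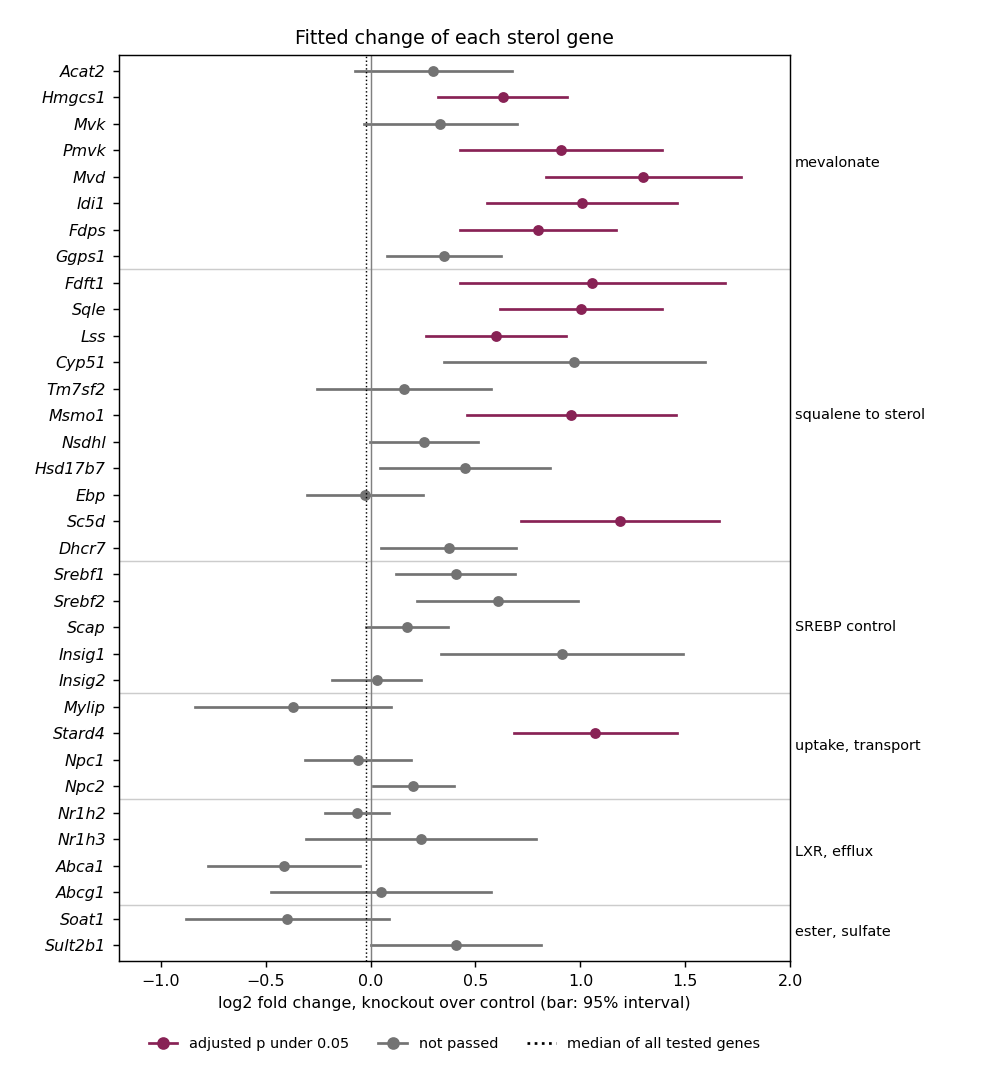
Fitted log2 fold change of knockout over control for each of the 34 genes (x axis), with its 95% interval as a bar, purple where the adjusted p was under 0.05 and grey where it was not; the dotted line is the median of all tested genes, -0.02. Mvd (1.30) and Sc5d (1.19) lie farthest right, and the 11 purple genes are 10 enzymes and Stard4.

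Among the 5 genes of SREBP control, 0 were called, against 4.33% of all tested genes called higher. The median log2 fold change was 0.41, with all 5 positive. DESeq2, which called 8.41% of tested genes higher, called 3 of these 5 higher, Srebf1, Srebf2 and Insig1. By limma-voom Insig1 was called, and 3 of the 5 had an unadjusted p under 0.05 by edgeR. Srebf2, the isoform that drives sterol genes, was at 314, 274, 202 and 324 CPM in controls against 544, 425, 362 and 363 CPM in knockouts. All knockouts exceeded all controls, and the log2 difference of 0.60 (95% interval 0.22 to 0.99) had an edgeR adjusted p of 0.0563. Insig1, the retention factor that SREBP itself induces, was at 73.1, 82.8, 37.4 and 45.3 CPM in controls against 136, 85.3, 115 and 113 CPM in knockouts. Its groups nearly touched, at control replicate 2 and knockout replicate 2, and the log2 difference was 0.91 (95% interval 0.33 to 1.49, edgeR adjusted p = 0.0593). Without control replicate 2 Insig1 was called (log2 1.11, adjusted p = 0.0427).

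Srebf1, whose products act more on fatty acid genes and which is also an LXR target, was at 204, 189.9, 137 and 214 CPM in controls against 254, 235, 249.5 and 250.1 CPM in knockouts. The knockouts were tight and above every control, with a log2 difference of 0.41 (95% interval 0.12 to 0.69, edgeR adjusted p = 0.0737). Counts by gene symbol do not separate its SREBP-1a and SREBP-1c transcripts. Scap, the escort protein, was at 217 ± 9.75 and 244 ± 20.1 CPM (SD, n = 4 each), with knockout replicate 3 inside the control range. Insig2, the second retention factor, was at 57.2 ± 6.75 and 58.4 ± 3.22 CPM (SD, n = 4 each). Its log2 difference of 0.03 had an interval of -0.18 to 0.24 and turned sign under 5 of 20 alternatives, upper-quartile scaling and library totals among them.

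Of the uptake and transport genes 1 of 4 was called higher, against 4.33% of all tested genes. The mean log2 level of the 4, relative to controls, was -0.05 to 0.12 in control libraries against 0.15 to 0.30 in knockouts, but 2 of the 4 had a negative fold change. Stard4 carries cholesterol between membranes through the cytosol and is a known SREBP target. It was at 31.4, 32.2, 18.7 and 26.6 CPM in controls against 70.9, 53.4, 49.6 and 55.0 CPM in knockouts. The groups were well apart, Stard4 rose 2.101-fold (log2 1.07, SE 0.17, edgeR adjusted p = 0.00723), and it was called in all 20 alternative fits. Npc1 and Npc2, which pass cholesterol out of lysosomes, did not pass. Npc1 was at 155 ± 19.8 and 149 ± 16.2 CPM and Npc2 at 76.3 ± 6.39 and 88.0 ± 5.89 CPM (SD, n = 4 each). Intervals on the log2 scale were -0.31 to 0.19 for Npc1 and 0.01 to 0.40 for Npc2, whose edgeR adjusted p was 0.167. Mylip, the LXR-induced ubiquitin ligase that degrades lipoprotein receptors, was at 31.6, 22.4, 24.7 and 26.0 CPM in controls against 13.2, 17.5, 22.1 and 28.2 CPM in knockouts. Knockout replicates 1 to 3 were below all controls but replicate 4 was not, and the log2 difference of -0.37 had an interval of -0.84 to 0.10.

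**Figure D3:**
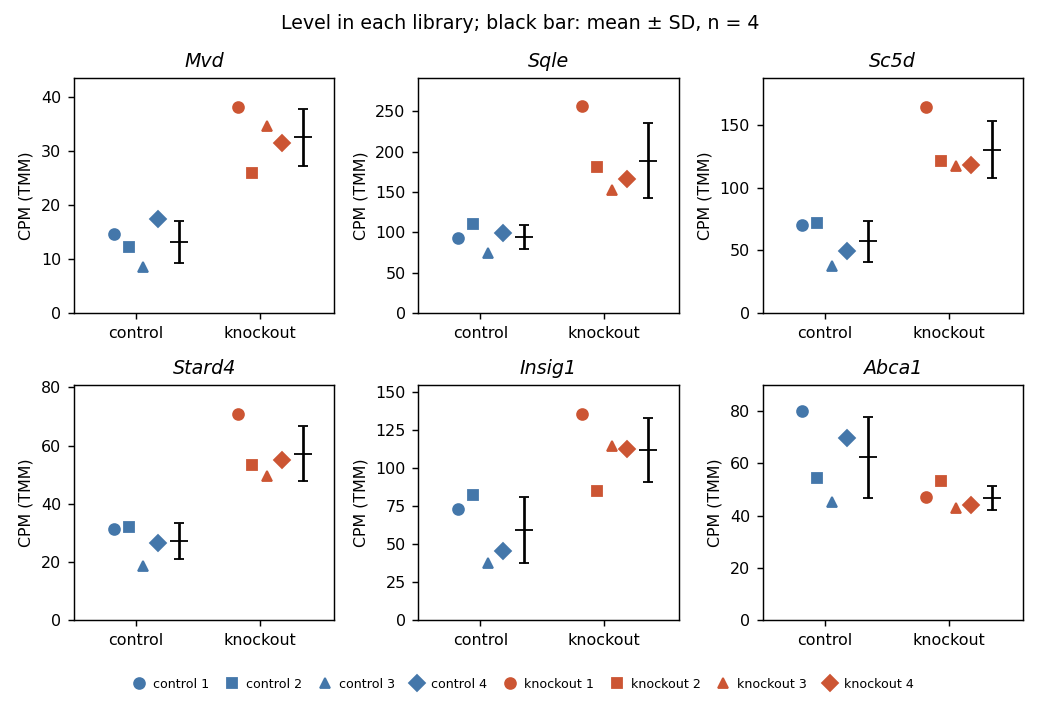
CPM of 6 genes in each library (y axis, from 0), with the mean ± SD of each group of 4 as a black bar. Mvd, Sqle, Sc5d and Stard4 show separate groups, Insig1 groups that nearly touch (82.8 and 85.3 CPM), and Abca1 groups that overlap with the higher values in controls.

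The LXR and efflux arm had 0 of 4 genes called, and its median log2 fold change was -0.01, with either sign over the alternatives. Of all tested genes 4.33% were called higher and 4.54% lower, so 0 calls among 4 genes is near that share. By edgeR 1 of the 4, Abca1, reached an unadjusted p under 0.05. DESeq2 and limma-voom called 0 as well. Abca1 exports cholesterol to apolipoprotein A-I. It was at 80.0, 54.3, 45.3 and 69.6 CPM in controls against 47.3, 53.1, 42.8 and 44.1 CPM in knockouts. Control replicate 3 lay within the knockout range and control replicate 2 just above it, and the log2 difference was -0.41 (95% interval -0.77 to -0.05, unadjusted p = 0.0287, edgeR adjusted p = 0.139). Without control replicate 3 Abca1 was called lower (log2 -0.54, adjusted p = 0.0370), as it was in the 5 libraries without Y-linked transcripts (log2 -0.68, adjusted p = 0.0271).

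Abcg1, which exports cholesterol to HDL particles, was at 31.7, 26.3, 23.2 and 46.6 CPM in controls against 26.0, 41.7, 38.0 and 26.8 CPM in knockouts. Both groups held a wide and overlapping range, the interval ran from -0.47 to 0.58 on the log2 scale, and the sign of the small difference turned under 7 of 20 alternatives. Of the receptors, Nr1h2 (LXR-beta) was at 82.7 ± 2.69 and 79.1 ± 0.560 CPM (SD, n = 4 each), with an interval of -0.22 to 0.09, the narrowest of the 34. Nr1h3 (LXR-alpha) was low, at 0.769 ± 0.163 and 0.908 ± 0.0440 CPM (SD, n = 4 each), and per length it was the lowest member in controls at 0.358 ± 0.0759 RPKM. A pseudogene named after Nr1h2, Nr1h2-ps, is annotated, so the counts of Nr1h2 are less certain. Only pseudogenes named after a member were looked for, so copies under other names are not known for any of the 34.

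Synthesis and efflux were then set side by side, library by library. The mean log2 level of the 19 enzymes, relative to controls, ran from -0.39 to 0.17 over the control libraries and from 0.58 to 0.91 over the knockouts. For the 4 LXR and efflux genes it ran from -0.15 to 0.14 in controls and from -0.10 to 0.08 in knockouts. These 4 pool the transporters Abca1 (log2 -0.41) and Abcg1 (0.05) with the receptors Nr1h2 (-0.06) and Nr1h3 (0.24). The median of the LXR and efflux genes lay between -0.12 and 0.05 over the 20 alternatives, and that of the enzymes between 0.51 and 0.71. These are descriptions of lists, and the difference between the lists was not tested.

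**Figure D4:**
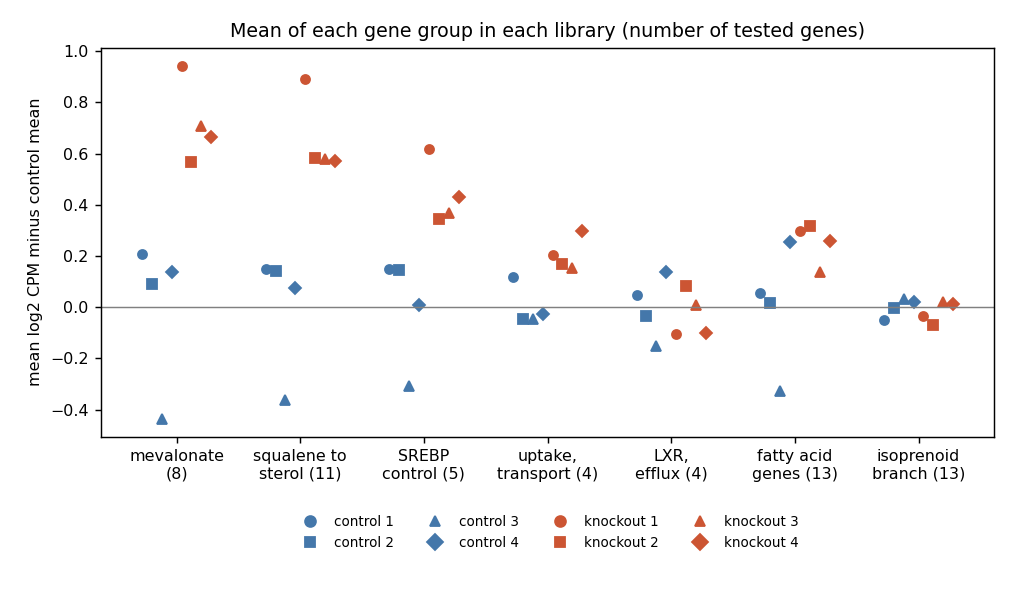
Mean over the tested genes of each group of the log2 CPM minus the control mean (y axis) in each of the 8 libraries, with the number of genes under each name. Knockouts lie above all controls for the 2 synthesis groups, SREBP control and uptake and transport, and among the controls for the LXR and efflux genes, the fatty acid genes overlapping and the isoprenoid branch staying between -0.07 and 0.03.

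The remaining members handle stored or sulfated sterol. Soat1, which esterifies cholesterol for storage, was low, at 3.45 ± 0.748 CPM in controls against 2.62 ± 0.510 CPM in knockouts (SD, n = 4 each), with an interval of -0.88 to 0.09 on the log2 scale. Sult2b1, the epidermal enzyme that makes cholesterol sulfate, was at 38.9, 49.2, 39.4 and 66.4 CPM in controls against 64.8, 78.8, 59.8 and 53.8 CPM in knockouts. Control replicate 4 was the second highest of all 8 libraries, and the log2 difference was 0.41 (edgeR adjusted p = 0.189). Without it Sult2b1 was called higher (log2 0.60, adjusted p = 0.0450).

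Read per length, the order of the members differed between the groups, for uncalled genes as well. From controls to knockouts, uncalled Cyp51 went from rank 9 to 6 and Insig1 from 16 to 11. In controls Hmgcs1 and Fdps were followed by Srebf2 (54.9 ± 10.9 RPKM), Scap (51.2 ± 2.31), Msmo1 (49.9 ± 15.1), Srebf1 (43.4 ± 7.98) and Idi1 (42.4 ± 11.5), neighbours that differed by less than the larger of their SDs (n = 4). Hmgcs1 stood above Fdps by more than either SD in both groups. In knockouts Msmo1 (96.8 ± 22.1 RPKM) and Idi1 (85.2 ± 15.01) came next, ahead of Srebf2 (83.4 ± 16.9), again within the larger SD (n = 4). At the other end Mvd, at 7.51 ± 2.19 RPKM in controls against 18.5 ± 2.96 in knockouts (SD, n = 4 each), was well below its pathway neighbours Idi1 and Fdps in both groups.

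Other genes of sterol handling, a list of 20 tested genes outside the 34, had 1 gene called higher, 2 lower and a median log2 fold change of -0.03. These are 5% and 10% of the list, against 4.33% and 4.54% of all tested genes. Erlin1, part of an endoplasmic reticulum complex that restrains SREBP, rose from 64.5 ± 6.40 to 84.0 ± 8.67 CPM (SD, n = 4 each, edgeR adjusted p = 0.0418). Cyp27a1, which makes 27-hydroxycholesterol, an LXR ligand, fell from 23.9 ± 3.15 to 14.7 ± 1.88 CPM (SD, n = 4 each, edgeR adjusted p = 0.0122). Stard5, a sterol-binding relative of Stard4, fell from 42.3 ± 1.88 to 32.2 ± 3.97 CPM (SD, n = 4 each, edgeR adjusted p = 0.0385). Cyp27a1 was called in all 8 fits that left out 1 library, Erlin1 and Stard5 in 2 of the 8 each, with adjusted p values of up to 0.125 and 0.113.

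Pathways that share intermediates or regulators with synthesis gave the following counts. Of all tested genes, 4.33% were called higher and 4.54% lower, and 1 call in a list this short says little about the list. The isoprenoid branch uses farnesyl and geranylgeranyl units for prenylation, dolichol and coenzyme Q. Of its 13 genes, 1 fell (7.69%) and 12 did not pass. The gene that fell was Fnta, a shared subunit of prenyl transferases, at 43.2 ± 4.26 and 31.8 ± 4.55 CPM (SD, n = 4 each, edgeR adjusted p = 0.0433). Of 13 tested fatty acid genes under SREBP control, 2 rose (15.4%) and 11 missed the threshold (median log2 fold change 0.22). Fasn, fatty acid synthase, rose from 282 ± 19.7 to 398 ± 60.7 CPM (edgeR adjusted p = 0.0267) and Lpin1, a phosphatidate phosphatase, from 9.08 ± 2.95 to 26.9 ± 14.7 CPM (edgeR adjusted p = 0.0443; SD, n = 4 each). Of 6 other LXR targets 1 rose (16.7%). This was Smpdl3a, a phosphodiesterase, from 34.3 ± 3.72 to 49.3 ± 9.44 CPM (SD, n = 4 each, edgeR adjusted p = 0.0418). Of the 8 fits that left out 1 library, Fasn was called in 4, Lpin1 and Smpdl3a in 1 each and Fnta in 0, with adjusted p values of up to 0.0580, 0.107, 0.112 and 0.0943.

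Some markers of differentiating keratinocytes were also higher in the knockout. Of 10 such markers 2 rose, against 4.33% of all tested genes, 8 did not pass and the median log2 fold change was 0.50. Tgm3 was the 1 marker with a negative log2 fold change, -0.52. It was at 83.5 ± 19.8 CPM in controls against 58.2 ± 10.9 CPM in knockouts (SD, n = 4 each, edgeR adjusted p = 0.115). Krt10, a suprabasal keratin, went from 5094 ± 1265 to 9022 ± 1301 CPM and Sbsn from 451 ± 126 to 897 ± 176 CPM (SD, n = 4 each). Sbsn was called in all 8 fits that left out 1 library and Krt10 in 6 (adjusted p up to 0.0564), and neither among the 5 libraries that lack Y-linked transcripts. The summed level of the 10 markers, mostly from Krt1 and Krt10, was 8652 to 13697 CPM in controls against 14472 to 18802 CPM in knockouts. As a mean log2 level relative to controls, which weights the 10 equally, the groups overlapped, at -0.23 to 0.37 in controls against 0.26 to 0.86 in knockouts. The highest sum among the knockouts was in replicate 2, and the highest mean enzyme level in replicate 1. The part of differentiation in the sterol result was not tested. Sebocytes and adipocytes also make lipid, and their markers were scarce. The summed level of 10 sebocyte markers was 13.3 to 16.1 CPM in controls against 11.4 to 16.2 CPM in knockouts. Plin5 and Mogat2 were at or near 0. Of the 6 tested, 2 had a positive and 4 a negative log2 fold change. Only Scd3 was called, lower, at 0.842 ± 0.289 and 0.324 ± 0.117 CPM (SD, n = 4 each, edgeR adjusted p = 0.0406). It was called in 2 of the 8 leave-one-out fits (adjusted p up to 0.121). Mc5r, too low to test, was above all controls in every knockout (0.0752 ± 0.0567 and 0.261 ± 0.128 CPM, SD, n = 4 each). The sum of 6 adipocyte markers was at most 0.277 CPM in any library, and Lep was at 0 in all 8. Fibroblast markers summed to 5.98 to 12.03 CPM in controls against 3.41 to 24.0 CPM in knockouts, with the highest value in knockout replicate 1. Of the 4 tested, Dcn, a matrix proteoglycan, was called higher (0.663 ± 0.229 to 1.92 ± 0.615 CPM, SD, n = 4 each, edgeR adjusted p = 0.0201), and in 6 of the 8 leave-one-out fits (adjusted p up to 0.0604). The other 3 were not called, at log2 fold changes of 0.24 (Col1a1), -0.44 (Col1a2) and 0.10 (Col3a1). The mean log2 level of the 4, relative to controls, was -0.24 in knockouts. The part of these cells in the sterol result was not tested. Leukocyte markers summed to 4.82 to 14.7 CPM in controls against 4.99 to 12.1 CPM in knockouts.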

How the data were processed

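RNA of 4 control and 4 knockout keratinocyte preparations was analysed from the deposited files, which hold whole-number read counts per gene symbol with no normalization by the authors, 1 file per library. Per the submitters' processing notes, reads were handled with Trimmomatic 0.35, FastQC 0.11.4, SAMtools 0.1.18 and TopHat2 2.1.0, on build mm10. The counting tool, annotation and strand setting are not given in the sources used here. In each file 5 closing lines name no gene and were left out of library sizes (reads outside genes were 15.7 to 21.7% and ambiguous reads 0.918 to 1.11% of a library). Groups follow the labels; knockout replicate 4 was taken by its sample title, which differs from the number in its file's name.

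Low counts were removed by filterByExpr with the groups, and the rest were scaled by TMM and tested with edgeR's quasi-likelihood test (robust, genotype as the only term) over all 13016 genes, adjusted by Benjamini-Hochberg with a threshold of 0.05, in R 4.3.3 with edgeR 4.0.16, limma 3.58.1 and DESeq2 1.42.0. The steps were tested on simulated counts first. Intervals are 95% from the fitted t distribution, and RPKM use GENCODE M21 exon unions. The 20 alternatives comprised limma-voom (plain or with quality weights), DESeq2, scaling by upper quartile, RLE or totals alone, no filter, a filter of 1 CPM in 4 libraries, a non-robust fit, a replicate block, a term for Y-linked transcripts, the 5 libraries without them, and each library left out. The 34 genes, the other lists and the tests were chosen with earlier results of these data known. Named were Hmgb1, all 34 genes, up to 4 called genes, by smallest adjusted p, of each of the other sterol, isoprenoid, fatty acid and LXR lists, the summed level of marker lists, and the promoters described. Perp, Dsg3, Dcn, Lep, Plin5, Mogat2, Scd3, Krt10, Sbsn, Tgm3 and overlapping genes were named after their values were seen. So were the other sebocyte and fibroblast markers given by name. Sts and Flg are on the lists and were not analysed here.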

Additional observations from a re-analysis of the deposited data

Results flagged for a closer look

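Within each group of 4 libraries, the distance of the highest or lowest library from its nearest neighbour was compared with the range of the group. It exceeded Dixon's 95% critical value in 6 of 68 groups, and chance alone gives about 1 in 20. In 4 of them knockout replicate 1 was the highest knockout, for Pmvk (78.5 CPM, share 0.892), Fdft1 (249.6 CPM, 0.906), Msmo1 (265 CPM, 0.857) and Sc5d (164 CPM, 0.915). The same library was the lowest knockout for Tm7sf2 (4.08 CPM, 0.878). For Soat1 the highest knockout was replicate 4 (3.38 CPM, 0.896).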

How the results depend on the processing

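Of the 220 values that the 20 alternatives gave for the 11 called genes, 186 were called in the same direction, 34 missed the threshold and 0 changed sign. Mvd, Idi1, Sqle, Sc5d and Stard4 were called in every one. Members called higher numbered 6 to 10 when 1 library was left out and 7 among the 5 libraries lacking Y-linked transcripts, against 11. Synthesis enzymes called higher numbered 5 to 9 and 6, against 10, and members called lower 0 to 1 and 1 (Abca1), against 0. The highest count of members was 15, by DESeq2, which also called more of all tested genes higher (8.41% against 4.33%). For the 5 libraries and the fits without a library, fewer samples entered the fit; the cause of each loss was not tested.

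Signs of 4 uncalled genes turned. Ebp (log2 -0.03) was 0.0143 with a Y-linked term, 0.0338 in the 5 libraries and -0.116 to 0.0720 with a library left out. Insig2 (0.03) was -0.0206 with quality weights, -0.0244 with upper-quartile scaling, -0.0780 with library totals and -0.0179 to 0.0958 with a library left out. Npc1 (-0.06) was 0.0510 with quality weights and -0.128 to 0.0224 with a library left out. Abcg1 (0.05) was -0.0488 with library totals, -0.0656 with a Y-linked term, -0.140 in the 5 libraries and -0.0762 to 0.291 with a library left out.

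With the replicate block 12 members were called higher, Lss missing and Cyp51 and Srebf2 added. Each gene's group mean was subtracted from its log2 levels, and the deviations of same-numbered control and knockout libraries were correlated. The coefficients were -0.183, -0.229, -0.0433 and -0.0869, so the numbers were not taken as pairs. Depth limits Nr1h3 most, with 22 to 30 counts per library.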
